A study of Mus musculus with 8 samples.

Results

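Expression of 37 genes that mark T cells, B cells, plasma cells and cytotoxic lymphocytes was examined in whole mouse pancreas. The genes were picked by name, as 21 T cell genes, 9 B cell genes, 4 plasma cell genes and 3 cytotoxic genes, and all 37 were found among the 48709 genes with deposited values. RNA-Seq had been performed on pancreata of 8-week-old male WT and cKO mice, 24 h after normal saline or after palmitoleic acid (POA) with ethanol, the mixture that produces FAEE-SAP, a severe alcohol-related pancreatitis. Each of the 4 groups had 2 libraries (WT saline, cKO saline, WT FAEE-SAP and cKO FAEE-SAP). The cKO mice carried floxed *Pfkfb3* alleles (*Pfkfb3* fl/fl) and *Pdx1*-Cre, which deletes exons 2 and 3 in cells of the pancreatic lineage. The WT mice were purchased from a vendor whereas the cKO mice came from the study's own line, so genotype and source of the animals cannot be told apart. The labels do not say that the libraries of a group came from separate mice, so a p-value measures only the spread between these libraries.

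T cells recognise antigen with a receptor whose chains signal through the CD3 proteins. B cells do so with surface immunoglobulin that signals through CD79A and CD79B, and after activation some of them become plasma cells, which secrete antibody. The pancreas holds few lymphocytes of its own, but lymph nodes and small lymphoid aggregates lie within and beside the gland and can be taken with it. In those places T and B cells sit among stromal cells that make *Ccl19* and *Ccl21a* and among high endothelial venules, the vessels by which lymphocytes enter. Plasma cells that make IgA, joined into pairs by the J chain, are found in mucosal and glandular tissue.

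The stretches of 250 bases before the start of *Cd3d*, *Cd3g*, *Cr2* and *Jchain* are shown as the regulatory sequence of a T cell pair, a B cell gene and a plasma cell gene, whose levels are described below. They are from RefSeq (GRCm38.p6, read 5′ to 3′ on the strand of the gene) and lie outside the genes as annotated. *Cd3g* and *Cd3d* are transcribed away from each other from starts 1.36 kb apart. Capitals mark matches on either strand to CACCTG (an E-box, the kind bound by E2A), GGAAGT (the core of ETS factor sites) and CTTTGA (a TCF/LEF site, the kind bound by the product of the member *Tcf7*).
Cd3d, chr9:44981536-44981785, plus strand: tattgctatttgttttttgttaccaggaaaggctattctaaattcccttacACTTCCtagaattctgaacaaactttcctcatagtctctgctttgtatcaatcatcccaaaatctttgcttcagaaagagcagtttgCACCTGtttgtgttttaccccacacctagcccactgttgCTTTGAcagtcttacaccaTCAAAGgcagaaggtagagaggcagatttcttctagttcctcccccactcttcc
Cd3g, chr9:44980432-44980681, minus strand: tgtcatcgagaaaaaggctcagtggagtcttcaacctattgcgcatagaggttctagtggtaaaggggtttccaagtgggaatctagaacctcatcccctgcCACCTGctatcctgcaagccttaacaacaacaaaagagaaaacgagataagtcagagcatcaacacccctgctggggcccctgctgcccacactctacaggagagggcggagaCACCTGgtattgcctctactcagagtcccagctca
Cr2, chr1:195176720-195176969, minus strand: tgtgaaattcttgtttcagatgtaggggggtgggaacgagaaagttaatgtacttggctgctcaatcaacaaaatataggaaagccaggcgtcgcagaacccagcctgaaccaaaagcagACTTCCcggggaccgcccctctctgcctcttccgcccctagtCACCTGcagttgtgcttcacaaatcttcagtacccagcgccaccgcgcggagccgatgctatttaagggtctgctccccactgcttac
Jchain, chr5:88527898-88528147, minus strand: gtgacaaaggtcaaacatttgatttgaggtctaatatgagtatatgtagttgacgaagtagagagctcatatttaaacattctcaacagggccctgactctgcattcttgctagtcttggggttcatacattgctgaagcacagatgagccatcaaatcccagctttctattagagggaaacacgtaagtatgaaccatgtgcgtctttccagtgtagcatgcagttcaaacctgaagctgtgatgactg
The stretch before *Cd3d* held 1 E-box, 1 ETS match and 2 TCF/LEF matches, that before *Cd3g* held 2 E-boxes, that before *Cr2* held 1 E-box and 1 ETS match, and that before *Jchain* held 0 matches. None of the matches in the printed stretches overlapped. Of the 24 members with a promoter in the table, 9 (37.5%) held the E-box letters and 9 (37.5%) the ETS letters, against 17.1% and 19.99% of 27025 promoters of the same length. The TCF/LEF letters were in 2 of the 24 (8.33%), against 14.1% of all promoters. These are matches of letters and not evidence of binding.

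Levels are given as scaled RPKM, the deposited reads per kilobase of exon and per mapped reads of the library, divided by 1 factor for each library (the median of its ratios to the geometric mean over genes). The factor was 0.621 to 0.866 after saline, 1.94 to 2.02 in WT FAEE-SAP and 0.975 to 1.05 in cKO FAEE-SAP. Library totals worked out from the lowest values were 22.8 to 37.6 M reads, so that a single read on 2 kb of exonic sequence was worth 0.0133 to 0.0219 RPKM. Acinar genes fit the label of pancreas, as *Cela2a* (an elastase) ranged from 6523 to 43308 scaled RPKM, whereas the highest value of any member was 12.7. A deletion of 2 exons need not show in gene-level values, and *Pfkfb3* was not used here to test the genotype labels. Genes were tested where 2 or more of the 8 libraries reached a deposited RPKM of 0.5 (11133 genes). Of the members, 31 passed, namely 18 of 21 T cell, 9 of 9 B cell, 3 of 4 plasma cell and 1 of 3 cytotoxic genes. *Cd28*, *Lef1*, *Foxp3*, *Tnfrsf17*, *Gzma* and *Gzmb* did not pass.

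Of the 8 libraries, 2 stood apart in the T and B cell genes, each against the other library of its own group. WT saline replicate 2 exceeded WT saline replicate 1 in 30 of the 31 members that passed, with a median ratio of 2.33, and in 22 of them by at least 2-fold. Over all genes tested the median ratio of the same libraries was 0.986, and 5.24% of genes were at least 2-fold higher in replicate 2. cKO FAEE-SAP replicate 1 exceeded replicate 2 in 30 of the 31, with a median ratio of 2.75 and 24 members at least 2-fold higher, against a median of 1.003 and 6.76% over all genes. The exceptions were *Nkg7* in WT saline (ratio 0.727) and *Il7r* in cKO FAEE-SAP (ratio 0.861). The libraries of the other groups were closer, with median ratios of replicate 1 to replicate 2 of 1.22 in WT FAEE-SAP and 1.10 in cKO saline.

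**Figure D1:**
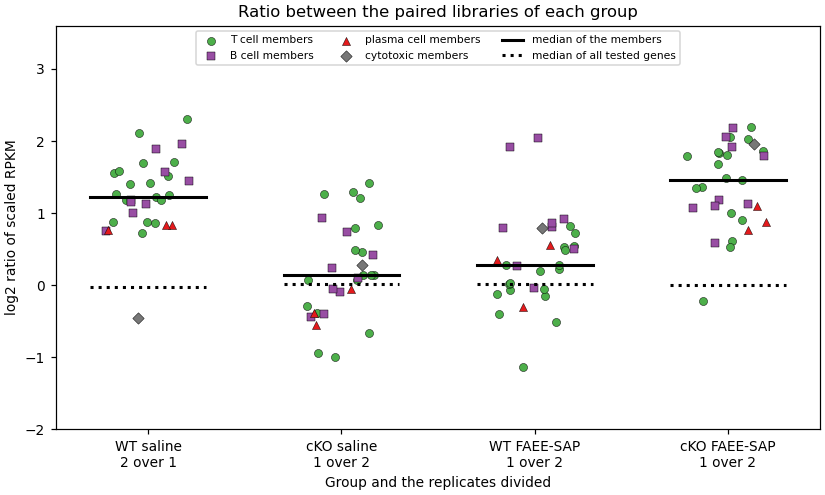
Ratio of scaled RPKM (log2 axis) between the libraries of each group, for the 31 members that passed the minimum (points, by list), with the median of the members (solid line) and of all genes tested (dotted line). The members' medians lie at ratios of 2.33 in WT saline and 2.75 in cKO FAEE-SAP and at 1.10 and 1.22 in the other groups, while the medians of all genes lie near 1.

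All 30 T and B cell members had their highest value in 1 of these libraries, 27 in WT saline replicate 2 and 3 in cKO FAEE-SAP replicate 1. Of all genes tested, 19.8% were highest in either library. For 20 of the 30 members, WT saline replicate 2 and cKO FAEE-SAP replicate 1 were the highest and second highest libraries in either order. The summed level of the 21 T cell members was 18.0 and 44.8 scaled RPKM in WT saline replicates 1 and 2, 23.6 and 23.5 in WT FAEE-SAP, 15.1 and 14.2 in cKO saline, and 34.1 and 13.6 in cKO FAEE-SAP. The summed level of the 9 B cell members was 10.5 and 23.3 in WT saline, 18.8 and 13.8 in WT FAEE-SAP, 9.48 and 10.2 in cKO saline, and 19.0 and 8.97 in cKO FAEE-SAP. In whole tissue, more cells of a type and more RNA per cell cannot be told apart. The scaling set the order of libraries across groups. As deposited, WT FAEE-SAP replicate 1 had the highest sums, 47.8 for T cell and 38.1 for B cell members, although the ratios between libraries of a group changed little (2.97 for WT saline and 2.69 for cKO FAEE-SAP in the T cell sum).

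**Figure D2:**
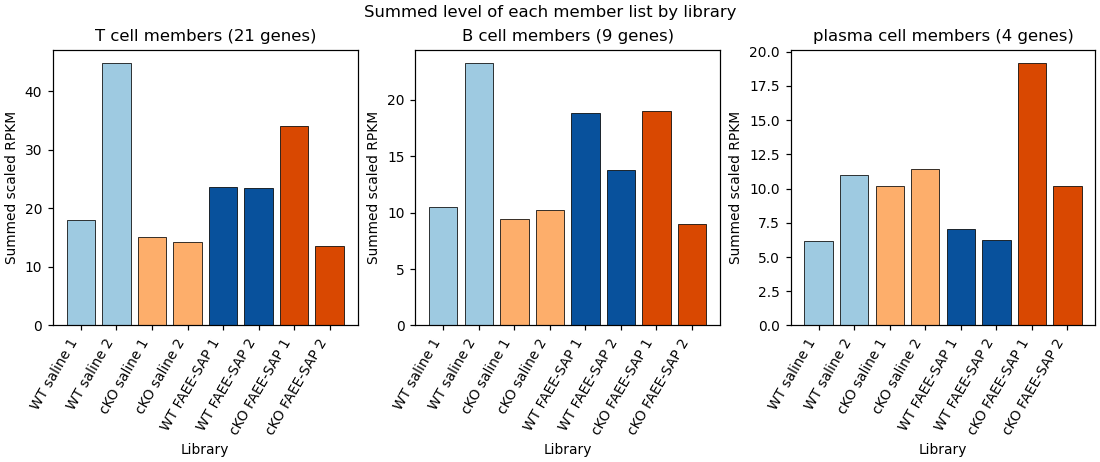
Summed scaled RPKM of the T cell, B cell and plasma cell members in each of the 8 libraries (bars, coloured by group, no error bars because each bar is 1 library). WT saline replicate 2 has the highest T cell sum (44.8) and B cell sum (23.3), and cKO FAEE-SAP replicate 1 has the highest plasma cell sum (19.2).

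Other genes moved with the same libraries. In lists of genes that are not members, 22 of 25 other T cell genes, 17 of 25 other B cell genes, 12 of 16 NK and cytotoxic genes, 9 of 14 lymphoid stroma and high endothelial venule genes and 7 of 10 germinal centre and cell cycle genes were highest in WT saline replicate 2 or cKO FAEE-SAP replicate 1. The counts were 0 of 13 for acinar genes, 1 of 11 for neutrophil genes, 1 of 11 for spleen and red cell genes and 1 of 14 for other plasma cell genes. These counts include genes at or near 0 reads, for which a read decides the highest library (*Gzmc* was at 0 in every library). Among the genes that passed the minimum, they were 10 of 12 for other T cell genes, 15 of 23 for other B cell genes, 3 of 3 for NK and cytotoxic genes, 7 of 9 for stroma and venule genes and 2 of 3 for germinal centre and cell cycle genes. Of 13 macrophage and dendritic cell genes, 3 were highest in WT saline replicate 2 and 7 in cKO FAEE-SAP replicate 1 (7 of the 10 that passed were highest in either). Within their groups, 13 of 13 were higher in WT saline replicate 2 than in replicate 1, 12 of 13 in cKO FAEE-SAP replicate 1 than in replicate 2, and 12 of 13 in both. Their sum was 44.1 and 60.2 in WT saline, 76.1 and 63.9 in WT FAEE-SAP, 46.8 and 47.4 in cKO saline, and 96.5 and 73.0 in cKO FAEE-SAP. The sum was thus higher in the same library of these groups as the T and B cell sums, but was also higher in all 4 FAEE-SAP libraries than in any saline library. In WT much of that sum was *Marco*, chosen after its values were seen, at 6.76 and 12.4 with saline and 32.9 and 25.9 with FAEE-SAP. For FAEE-SAP against saline, 4 of the 10 that passed were above 0 in WT (median log2 difference -0.064) and 9 in cKO (median 0.75). The list had a Pearson r of 0.519 with the T cell members over the 8 libraries, as a description. Of the 9 fat tissue genes, 4 were highest in either library, and 6 were higher both in WT saline replicate 2 than in replicate 1 and in cKO FAEE-SAP replicate 1 than in replicate 2. *Plin1*, a protein of fat droplets chosen after its values were seen, stood at 0.0625 and 0.663 in WT saline, 0.459 and 0.757 in WT FAEE-SAP, 0.587 and 0.0412 in cKO saline, and 0.998 and 0.0214 in cKO FAEE-SAP. It was thus also high in libraries whose T and B cell sums were not. *Glycam1*, a mucin-like protein of high endothelial venules, was chosen after its values were seen. It stood at 5.34 and 17.3 in WT saline, 3.14 and 1.21 in WT FAEE-SAP, 7.99 and 3.75 in cKO saline, and 11.2 and 4.61 in cKO FAEE-SAP. *Ccl19*, a chemokine that draws T cells into lymphoid tissue and likewise chosen after its values were seen, stood at 1.17 and 4.04, 2.43 and 0.510, 2.21 and 0.552, and 2.88 and 0.765 scaled RPKM in the same order. Within WT saline and within cKO FAEE-SAP, both genes were higher in the library with the higher T and B cell sums. Both were also higher in replicate 1 of WT FAEE-SAP and of cKO saline, where the T cell sums of the libraries were close. Most of the sum of the 14 stroma and venule genes was *Clu* (clusterin, 115 to 438 scaled RPKM), which epithelial cells also make. Without *Clu* the sum was 42.7 and 91.8 in WT saline, 57.9 and 41.9 in WT FAEE-SAP, 44.8 and 39.2 in cKO saline, and 78.8 and 46.3 in cKO FAEE-SAP, highest in the same 2 libraries as the T cell sum. The mean standardised level of the list had a Pearson r of 0.795 with the T cell members and 0.866 with the B cell members over the 8 libraries, as a description. The part of lymphoid or fat tissue taken with the gland in the values of the members was not tested.

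Among the T cell genes, those of the receptor complex followed the pattern of the sums. *Trbc2* and *Trac* encode constant regions of the receptor's beta and alpha chains. *Trbc2* (chr6:41546730-41548352) stood at 2.17 and 5.74 scaled RPKM in WT saline, 4.23 and 4.13 in WT FAEE-SAP, 2.404 and 2.28 in cKO saline, and 5.35 and 1.49 in cKO FAEE-SAP. *Trac* (chr14:54220521-54224206) stood at 2.07 and 4.70, 2.17 and 1.54, 1.19 and 1.08, and 3.85 and 1.06 in the same order. In both genes WT saline replicate 2 was the highest library and cKO FAEE-SAP replicate 1 the second highest. *Trbc1*, a near-identical copy of *Trbc2* with which it may share reads, ranged from 0.708 to 4.17. *Cd3d*, *Cd3e* and *Cd3g*, the signalling chains of the receptor, ranged from 0.709 to 1.95, from 0.508 to 1.53 and from 0.403 to 2.53 scaled RPKM. Each of them was highest in WT saline replicate 2 and second highest in cKO FAEE-SAP replicate 1.

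*Cd4*, the coreceptor of helper T cells that macrophages and dendritic cells can also make, was at 1.18 and 2.15 in WT saline, 1.14 and 1.19 in WT FAEE-SAP, 0.518 and 0.677 in cKO saline, and 1.65 and 1.08 in cKO FAEE-SAP. Both cKO saline libraries lay below all 6 others. *Cd8a* and *Cd8b1*, the chains of the coreceptor of cytotoxic T cells, ranged from 0.224 to 1.34 and from 0.323 to 2.11, again highest in WT saline replicate 2. The kinases *Lck* and *Zap70*, which carry the receptor's signal, ranged from 0.430 to 2.51 and from 0.199 to 0.734. The surface proteins *Cd2*, *Cd5*, *Cd6* and *Cd27* ranged from 0.0823 (*Cd27* in cKO saline replicate 2, about 4 reads) to 1.84 (*Cd2* in WT saline replicate 2), and the costimulatory receptor *Cd28* from 0.0906 to 0.400.

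*Tcf7*, a transcription factor of naive and memory T cells, was at 2.36 and 3.91 in WT saline, 3.41 and 3.70 in WT FAEE-SAP, 1.25 and 1.99 in cKO saline, and 3.40 and 2.35 in cKO FAEE-SAP. *Ccr7*, the receptor for CCL19 and CCL21 by which T cells home to lymph nodes, was at 1.59 and 3.78, 1.69 and 2.22, 0.906 and 0.823, and 3.08 and 0.754 in the same order. *Ccr7* thus differed 4.08-fold between the cKO FAEE-SAP libraries, while *Tcf7* differed 1.45-fold. *Il7r*, the receptor for the survival cytokine IL-7, was the T cell member that did not follow the others in cKO FAEE-SAP, with 1.17 and 1.35. *Lef1*, a relative of *Tcf7*, ranged from 0.0490 to 0.308, and *Foxp3*, the factor of regulatory T cells, from 0.0214 to 0.212 on about 2 to 26 reads.

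*Cd79a* (chr7:24897381-24902197) had the highest mean of the B cell members over the 8 libraries, although *Cd79b* was above it in replicate 2 of cKO saline and of cKO FAEE-SAP. *Cd79a* was at 3.36 and 7.63 scaled RPKM in WT saline, 6.12 and 5.08 in WT FAEE-SAP, 2.84 and 3.02 in cKO saline, and 5.92 and 2.75 in cKO FAEE-SAP. *Cd79b*, its partner, was at 3.04 and 5.11, 4.05 and 4.17, 2.50 and 3.41, and 4.74 and 3.17. The WT and cKO libraries of each treatment overlapped in *Cd79b*, and in *Cd79a* with FAEE-SAP. *Ms4a1* (CD20) ranged from 0.279 to 1.30, *Pax5*, the transcription factor that holds B cell identity, from 0.299 to 0.921, the B cell receptor inhibitor *Cd22* from 0.665 to 2.05, the kinase *Blk* from 0.232 to 1.16, and the tetraspanin *Cd37* from 1.13 to 3.25.

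*Cr2* (CD21) and *Fcer2a* (CD23) are receptors of mature follicular B cells, and follicular dendritic cells make both as well. *Cr2* was at 0.155 and 0.604 in WT saline, 0.374 and 0.0992 in WT FAEE-SAP, 0.158 and 0.0826 in cKO saline, and 0.269 and 0.0777 in cKO FAEE-SAP. *Fcer2a* was at 0.360 and 1.34, 1.01 and 0.245, 0.386 and 0.232, and 0.974 and 0.214. These members also separated the WT FAEE-SAP libraries, each about 4-fold higher in replicate 1, and *Il7r* did so in the other direction (ratio 0.455). There the median ratio of the 9 B cell members was 1.74 and that of the 18 T cell members 1.08.

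**Figure D3:**
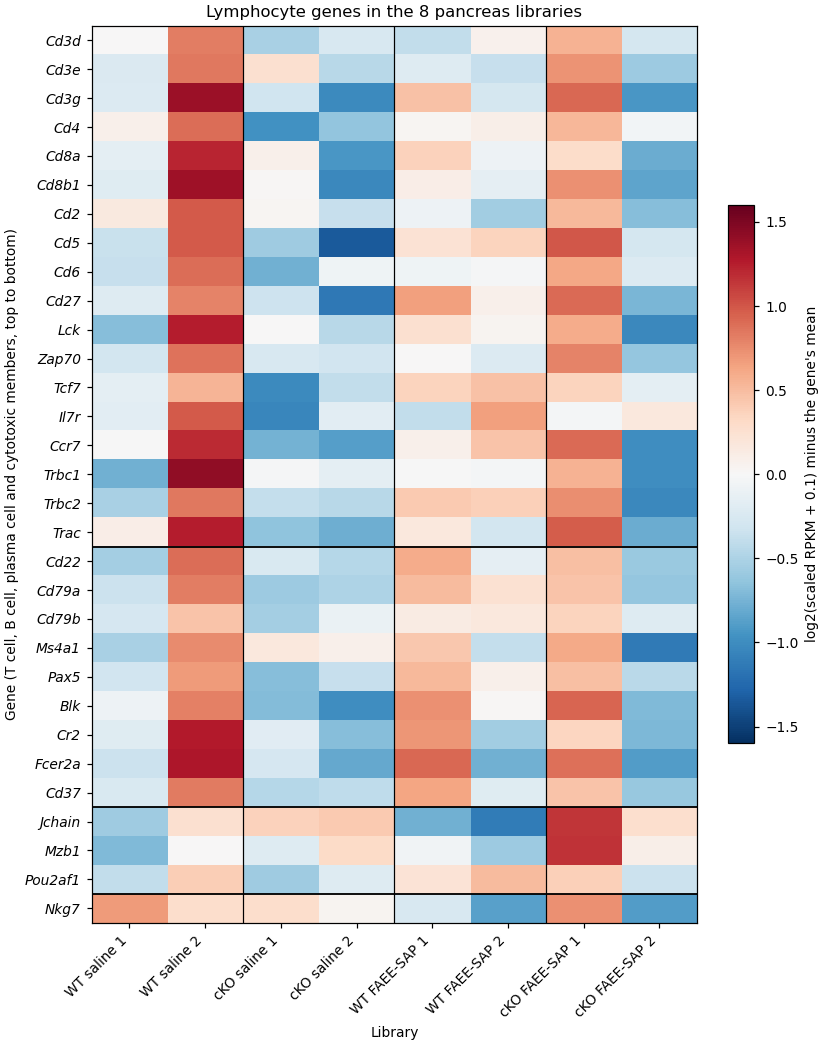
Level of the 31 members that passed the minimum (rows, in the order T cell, B cell, plasma cell and cytotoxic genes, separated by lines) in the 8 libraries (columns), as log2(scaled RPKM + 0.1) minus the mean of the gene. The column of WT saline replicate 2 is red for all T and B cell rows, and the Jchain and Mzb1 rows are highest in cKO FAEE-SAP replicate 1.

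The level of T cell and B cell members moved together. The mean standardised log2 levels of the 18 and the 9 genes that passed had a Pearson r of 0.933 over the 8 libraries, which share the high libraries named above, and this is a description only. The ratio of the T cell sum to the B cell sum stayed between 1.25 and 1.93 in all 8 libraries. The non-members most like the T cell members were *Lat* (r = 0.974), an adaptor of the T cell receptor, *Sash3* (0.972), *Gimap3* (0.963), *Cd74* (0.960), the invariant chain of antigen presentation, and *H2-K1* (0.960), an MHC class I gene. Those most like the B cell members were *Sp100* (0.992), *Ptprc* (0.989), which encodes the leukocyte protein CD45, *H2-Ob* (0.981), a B cell MHC class II accessory gene, *Filip1l* (0.979) and *Iigp1* (0.976). Likeness is Pearson r over 8 libraries among genes with a mean of at least 1 scaled RPKM.

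The response to FAEE-SAP in WT mice was tested first, with limma and Benjamini-Hochberg adjustment over all genes, and calls needed both an adjusted p under 0.05 and a 2-fold difference. None of the 31 members tested was called (0 genes, and 0 at an unadjusted p under 0.05), against 7.48% of all genes called and 29.1% at an unadjusted p under 0.05. Of the members, 10 had a positive and 21 a negative difference, with a median log2 difference of -0.30 against 0.01 for all genes. The libraries did not overlap for 3 members, *Cd2*, *Jchain* and *Nkg7*, all lower with FAEE-SAP (9.68% of members, against 29.4% of all genes lower), and for 0 members that were higher (29.1% of all genes). The size of the median rested on WT saline replicate 2, without which it was 0.40, and it was -0.85 without replicate 1. Without that library and cKO FAEE-SAP replicate 1, a setting chosen after the data were seen, it was 0.39 and 0 of 29 members were called. In the unscaled deposited values 6 of the 31 members were called higher, against 64% of all genes. In the scaled values of this comparison 8 of 8 tested neutrophil genes were called higher, led by *S100a8* (log2 difference 5.79, adjusted p = 0.00106 from limma), and 11 of 13 acinar genes were called lower, led by *Bhlha15* (-3.46, adjusted p = 0.00577 from limma).

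In cKO mice, FAEE-SAP against saline gave 27 positive and 4 negative differences among the 31 members, with a median of 0.44 on the log2 scale against -0.02 for all genes. None was called (0 genes by limma), against 0.135% of all genes. An unadjusted p under 0.05 was reached by *Cd4* (log2 difference 1.05, SE 0.32, adjusted p = 0.330 from limma) and *Tcf7* (0.80, SE 0.32, adjusted p = 0.420), 2 members against 10.9% of all genes. The libraries did not overlap for 4 members, *Cd4*, *Cd5*, *Tcf7* and *Il7r*, all higher with FAEE-SAP (12.9% of members, against 20.2% of all genes higher). Without cKO FAEE-SAP replicate 1 the median was -0.17, without replicate 2 it was 0.98, and without both high libraries it was -0.13. In the unscaled deposited values, with an all-gene median of 0.57, *Cd4* alone among the 31 members was called (log2 difference 1.59, adjusted p = 0.0441 from limma), against 6.67% of all genes called higher in that fit.

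With saline, cKO against WT gave 3 positive and 28 negative differences, a median of -0.74 against 0.02 for all genes. None of the 31 was called by limma, and 0% of all genes were. An unadjusted p under 0.05 was reached by 3 members, *Cd4* (log2 difference -1.29, SE 0.32), *Trac* (-1.39, SE 0.59) and *Tcf7* (-0.90, SE 0.32), against 2.63% of all genes, and each had an adjusted p of 1 in limma. Both cKO libraries lay below both WT libraries for 13 members (41.9%), against 13.6% of all genes. These were 9 T cell genes (*Cd3d*, *Cd3g*, *Cd4*, *Cd2*, *Cd5*, *Cd27*, *Tcf7*, *Ccr7* and *Trac*) and 4 B cell genes (*Cd79a*, *Pax5*, *Blk* and *Cd37*), whose values rise and fall together across libraries and are not independent of each other. *Jchain* was the 1 member that was higher without overlap (15.6% of all genes). The median stayed negative when any library was left out, from -1.33 without WT saline replicate 1 to -0.20 without WT saline replicate 2. It was -0.21 without both high libraries.

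With FAEE-SAP, cKO against WT gave 11 positive and 20 negative differences with a median of -0.10, against 0.01 for all genes. None of the 31 members was called, against 2.65% of all genes, and 1 member, *Jchain*, had an unadjusted p under 0.05, against 23% of all genes. The libraries did not overlap for *Jchain* and *Mzb1*, both higher in cKO (6.45% of members, against 26.8% of all genes), and for *Tcf7*, lower in cKO (3.23%, against 25.1%). The median was -0.72 without cKO FAEE-SAP replicate 1, 0.57 without replicate 2, and -0.72 without both high libraries. As deposited, it was -1.003 beside -0.90 for all genes, and 4 members were called lower (against 39.3% of all genes called lower in that fit).

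The interaction of genotype and treatment was positive for 30 of the 31 members, with a median of 0.76 against 0.02 for all genes. None was called (0 genes by limma), against 0.0719% of all genes, and *Cd4* was the 1 member with an unadjusted p under 0.05 (log2 difference 1.47, SE 0.45, adjusted p = 0.284 from limma), against 12.6% of all genes. Leaving out cKO FAEE-SAP replicate 1 brought the median to 0.067, leaving out WT saline replicate 2 to 0.23 and leaving out cKO FAEE-SAP replicate 2 to 1.34. Without WT saline replicate 2 and cKO FAEE-SAP replicate 1 together, the setting chosen after the data were seen, it was -0.44 with 7 of 29 members positive. As deposited the median was 0.14. Some other lists had larger median interactions, of either sign, and the lists were not compared by a test. The interaction was positive for 8 of 10 tested macrophage and dendritic cell genes (median 0.92), of which 7 had an unadjusted p under 0.05 against the same 12.6% of all genes. It was positive for 13 of 13 acinar genes (median 1.05, 10 with an unadjusted p under 0.05) and negative for 8 of 8 neutrophil genes (median -1.62, 4 with an unadjusted p under 0.05). None of these genes was called by limma (0 genes).

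**Figure D4:**
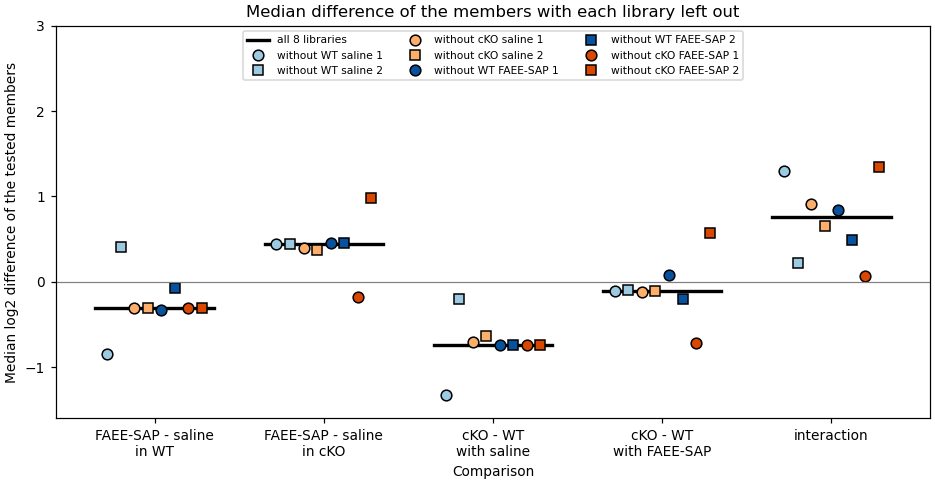
Median log2 difference of the tested members in the 4 comparisons and the interaction, with all 8 libraries (black line) and with each library left out in turn (points, coloured by the group of the library left out, circle for replicate 1 and square for replicate 2). Without WT saline replicate 2 the first comparison moves from -0.30 to 0.40, and without cKO FAEE-SAP replicate 1 the second moves from 0.44 to -0.17.

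Pathway genes that are not members were tested in the same fits. Of the 12 other T cell genes tested of 25, 0 were called by limma in any of the 5 comparisons, and at most 1 reached an unadjusted p under 0.05 in a comparison. Of 23 other B cell genes tested of 25, *Pik3ap1*, an adaptor of PI3-kinase signalling, was called lower with FAEE-SAP in WT (log2 difference -1.20, adjusted p = 0.0476 from limma), where 7.48% of all genes were called. It was at 9.20 and 9.01 in WT saline and 5.49 and 2.77 in WT FAEE-SAP, above *Cd79a* in saline and below it with FAEE-SAP. The call did not hold under the other scalings (log2 difference -1.15, adjusted p = 0.0512 with the trimmed mean, -1.24 and 0.0514 with quantile normalization, and 0.095 and 0.796 as deposited, from limma). Of 13 other plasma cell genes tested of 14, *Sdc1* (2.92), *Xbp1* (1.39) and *Cd38* (1.26) were called higher and *Fkbp11* (-2.69) and *Edem1* (-1.28) lower in WT FAEE-SAP on the log2 scale, 5 genes of the 13 against the same 7.48%. As deposited, *Edem1* was not called (0.036). *Cd38* and *Edem1* were named after their values were seen. The secretory genes *Xbp1*, *Fkbp11* and *Edem1* and the proteoglycan *Sdc1* are also made by epithelial cells of the pancreas, and *Fkbp11* fell with the acinar genes from 24.7 and 26.0 to 3.39 and 4.38 scaled RPKM. In cKO against WT with FAEE-SAP *Fkbp11* was called higher (2.27, adjusted p = 0.0190 from limma), beside 9 of 13 acinar genes called higher and 1 of 8 neutrophil genes, *S100a8*, called lower. Of 9 tested stroma and venule genes, *Cxcl13* alone, the chemokine of B cell follicles, was called higher in WT FAEE-SAP (1.76, adjusted p = 0.00353 from limma) and lower in cKO than in WT with FAEE-SAP (-1.13, adjusted p = 0.0336 from limma). It was at 12.2 and 9.95 in WT FAEE-SAP and between 2.99 and 5.79 in the 6 other libraries. The list did not share its direction, with a median of 0.0033 in WT FAEE-SAP and, in cKO against WT with FAEE-SAP, 6 of 9 above 0 and a median of 0.37. Of 8 tested fat tissue genes, *Lpl* alone (lipoprotein lipase) was called lower in WT FAEE-SAP (-2.23, adjusted p = 0.00164 from limma) and higher in cKO than in WT with FAEE-SAP (1.80, adjusted p = 0.00909 from limma). Most of its list had the opposite sign, with 6 of 8 above 0 in WT FAEE-SAP (median 0.97) and *Lpl* as the 1 of 8 above 0 in cKO against WT with FAEE-SAP (median -0.92). As deposited, neither *Lpl* difference reached 2-fold (-0.94 and 0.86). Of 10 tested macrophage and dendritic cell genes, 0 were called by limma, and in cKO against WT with FAEE-SAP 8 were above 0 (median 0.71) and 7 had an unadjusted p under 0.05, against 23% of all genes.

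Of the plasma cell genes, *Jchain* and *Mzb1* differed from the T and B cell genes in their order across the genotypes in the scaled values. Within WT saline and within cKO FAEE-SAP, the 3 that passed were higher in the same libraries as the T and B cell genes, with median ratios of 1.78 and 1.84. *Jchain* (chr5:88519809-88527891), the joining chain of IgA and IgM, had the highest mean of any member over the 8 libraries. It lay below *Cd79a* in both WT FAEE-SAP libraries and in WT saline replicate 2. It was at 3.81 and 6.81 scaled RPKM in WT saline, 3.29 and 2.58 in WT FAEE-SAP, 7.41 and 7.67 in cKO saline, and 12.7 and 6.88 in cKO FAEE-SAP, on about 197 to 918 reads. Every cKO library was above every WT library, cKO FAEE-SAP replicate 2 only just above WT saline replicate 2. This separation held in the scaled values and not as deposited, where *Jchain* was at 2.77 and 5.90 RPKM in WT saline, 6.67 and 4.99 in WT FAEE-SAP, 4.60 and 5.10 in cKO saline, and 13.3 and 6.71 in cKO FAEE-SAP, so that the genotypes overlapped with saline and nearly met with FAEE-SAP. With FAEE-SAP the cKO mean was 9.78 ± 4.11 (SD, n = 2) and the WT mean 2.94 ± 0.508 (SD, n = 2), for a log2 difference of 1.65 (SE 0.36, unadjusted p = 0.00221, adjusted p = 0.0608 from limma), which missed the threshold. It was 1.22 without cKO FAEE-SAP replicate 1 and 0.70 as deposited, and over 20 alternatives the adjusted p from limma ran from 0.00534 to 0.292.

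*Mzb1*, a chaperone of antibody assembly, was at 1.07 and 1.82 in WT saline, 1.74 and 1.19 in WT FAEE-SAP, 1.56 and 2.28 in cKO saline, and 4.17 and 1.94 in cKO FAEE-SAP. The libraries of the genotypes overlapped with saline and not with FAEE-SAP, where the log2 difference was 0.94 (SE 0.42, adjusted p = 0.231 from limma). It was 0.42 without cKO FAEE-SAP replicate 1 and 0.02 as deposited, where the genotypes overlapped with FAEE-SAP as well (3.52 and 2.29 RPKM in WT, 4.36 and 1.89 in cKO). *Pou2af1*, a transcriptional coactivator that B cells and plasma cells share, was at 1.26 and 2.26, 1.99 and 2.45, 1.11 and 1.46, and 2.24 and 1.32 in the same order of groups, highest in WT FAEE-SAP replicate 2. *Tnfrsf17* (BCMA), a survival receptor of plasma cells, had only about 1 to 2 reads in every library, and no difference could be detected at this depth.

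Because the B cell level differed between libraries, the plasma cell genes were also set against *Cd79a* within each library, a comparison chosen after the values were seen. *Jchain* over *Cd79a* was 1.13 and 0.894 in WT saline, 0.538 and 0.507 in WT FAEE-SAP, 2.61 and 2.54 in cKO saline, and 2.14 and 2.50 in cKO FAEE-SAP. *Mzb1* over *Cd79a* was 0.319 and 0.239 in WT saline, 0.284 and 0.233 in WT FAEE-SAP, 0.548 and 0.752 in cKO saline, and 0.705 and 0.705 in cKO FAEE-SAP. In both ratios each cKO library was above each WT library, including the 2 libraries with high T and B cell genes, and *Cd79b* in place of *Cd79a* gave the same separation. With *Ms4a1* in its place *Jchain* still separated (8.88 to 24.7 in cKO, 3.24 to 7.98 in WT), but *Mzb1* overlapped between the genotypes with saline. With saline, *Mzb1* itself overlapped and *Cd79a* was lower in both cKO libraries (2.84 and 3.02) than in both WT libraries (3.36 and 7.63). The *Mzb1* ratio there thus depended on its denominator. The ratios were chosen for genes already seen to differ, so no test is given. *Pou2af1* over *Cd79a* (0.296 to 0.483 in WT, 0.379 to 0.481 in cKO), *Trac* over *Cd79a* (0.302 to 0.617 and 0.356 to 0.651) and the T cell sum over the B cell sum (1.25 to 1.93 and 1.39 to 1.79) overlapped between the genotypes. A library's ratio does not depend on its scaling factor.

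**Figure D5:**
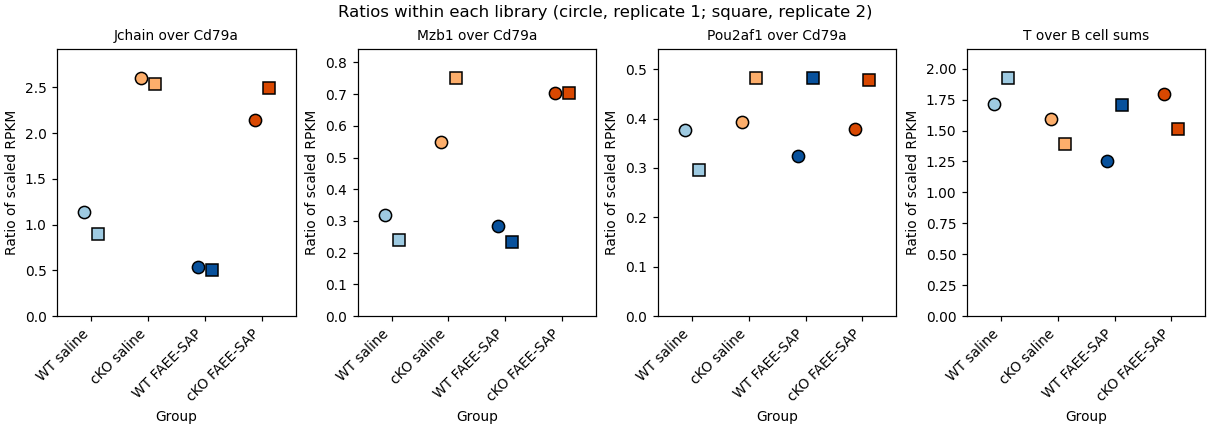
Ratios of scaled RPKM within each library for Jchain, Mzb1 and Pou2af1 over Cd79a and for the T cell sum over the B cell sum, by group (circle, replicate 1; square, replicate 2; axes start at 0). The cKO libraries lie at 2.14 to 2.61 and the WT libraries at 0.507 to 1.13 for Jchain, and the genotypes overlap for Pou2af1 and for the sums.

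With the mean level of the B cell members as a covariate in the model, also chosen after the values were seen and so no independent test, *Jchain* was called higher in cKO than in WT with FAEE-SAP (log2 difference 1.82, SE 0.16, adjusted p = 0.00534 from limma) and so was *Mzb1* (1.13, SE 0.24, adjusted p = 0.0425). In that model 3.05% of all genes were called higher. *Pou2af1* was not called (-0.23, SE 0.27, adjusted p = 0.630 from limma). With saline the same differences were 1.02 for *Jchain* and 0.91 for *Mzb1*, with adjusted p-values of 0.468 and 0.862 from limma. Immunoglobulin constant genes, which are not members and were looked at after these values, were at 18.7 and 20.3 scaled RPKM in cKO FAEE-SAP for *Igha*, the IgA heavy chain, against 6.22 to 9.51 in the 6 other libraries (cKO against WT with FAEE-SAP 1.42 on the log2 scale, adjusted p = 0.0288 from limma). As deposited, *Igha* was at 19.5 and 19.8 RPKM in cKO FAEE-SAP and 13.1 and 15.5 in WT FAEE-SAP, and the call was lost (log2 difference 0.46, adjusted p = 0.143 from limma, all-gene median -0.90). *Igkc*, the kappa light chain, was at 187 and 104 in cKO FAEE-SAP and 74.8 and 53.4 in WT FAEE-SAP (log2 difference 1.14, adjusted p = 0.118 from limma). *Ighg2b* (1.53, adjusted p = 0.143), *Ighm* (0.76, adjusted p = 0.450) and *Ighd*, a gene of naive B cells (-0.47, adjusted p = 0.637), were not called by limma either. *Ighm* was at 74.8 and 22.6 in cKO FAEE-SAP and 24.8 and 23.6 in WT FAEE-SAP, so that its libraries overlapped. As deposited, the log2 differences were 0.17 for *Igkc*, 0.59 for *Ighg2b*, -0.20 for *Ighm* and -1.42 for *Ighd*, and none was called by limma. The *Igkc* libraries with FAEE-SAP then overlapped (196 and 101 RPKM in cKO, 151 and 103 in WT). Genotype, source of the animals and the B cell content of single libraries were not separated further by this design.

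The cytotoxic genes were scarce. *Nkg7*, a granule protein of NK and cytotoxic T cells, was at 0.953 and 0.693 in WT saline, 0.448 and 0.259 in WT FAEE-SAP, 0.700 and 0.576 in cKO saline, and 0.985 and 0.254 in cKO FAEE-SAP, on about 7 to 26 reads. Both WT FAEE-SAP libraries were below both WT saline libraries (log2 difference -1.04, SE 0.51, adjusted p = 0.222 from limma). *Gzma* ranged from 0.0755 to 0.417 on about 2 to 19 reads and *Gzmb* from 0 to 0.117 on 0 to about 6 reads, so no difference in these granzyme genes was detectable at this depth.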

How the data were processed

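RNA-Seq of total pancreatic RNA gave 8 libraries, 2 in each of 4 groups, assigned by their labels. The study's methods describe a directional kit, paired-end reads filtered with fastp and mapping to Ensembl GRCm38.p6 with CLC Genomics Workbench. How expression was computed is not given in the sources used here. Values deposited by the authors are RPKM (reads per length of exon and mapped reads of the library), and no counts were used here. Library totals were recovered from low values with GENCODE vM21 exon lengths. Between 84.5% and 85.8% of values under 20 reads were whole within 0.1 reads, but reads summed to 100.3% to 105.7% of the totals, so reads per gene are approximate.

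RPKM of all 8 libraries were scaled together by the median of ratios. Genes with RPKM of at least 0.5 in at least 2 libraries were kept, transformed as log2(scaled RPKM + 0.1), which understates changes of low genes, and fitted by limma 3.58.1 under R 4.3.3 (intensity trend, 4 group means) with Benjamini-Hochberg adjustment, a procedure tested on simulated data. Calls needed an adjusted p-value under 0.05 and 2-fold. The members, the other gene lists and the tests were chosen with earlier results of these data known. Genes named by rule are all members, up to 3 called genes with the largest change per other list and comparison, and the 5 genes most like the T and the B cell pattern. Outside the rule, *Plin1*, *Glycam1*, *Ccl19*, *Clu*, *Marco*, *Gzmc*, *Cd38*, *Edem1* and the immunoglobulin constant genes were named after their values were seen. The germinal centre, NK and red cell lists gave 0 calls (limma, with at most 1 gene of a list at an unadjusted p under 0.05 in a comparison), and the macrophage list gave 0 calls with up to 7 of 10 genes at that p. Promoters were from RefSeq. Summaries used scipy 1.17.1 and pandas 2.3.3 in Python 3.11.15. Alternatives were other scalings (as deposited, trimmed mean, quantile), filters, pseudocounts, no trend, the 2 groups alone, a replicate block, other thresholds and each library left out.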

Additional observations from a re-analysis of the deposited data

How the results depend on the processing

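Counts of called members stayed at 0 under all alternatives but these. With the values as deposited, 6 members were called higher with FAEE-SAP in WT (median log2 difference 0.93, all genes 1.23), 1 in cKO and 4 lower in cKO against WT with FAEE-SAP (median -1.003, all genes -0.90), against 64% of all genes higher, 6.67% higher and 39.3% lower. With an unadjusted p threshold 1 member was called higher in cKO FAEE-SAP against saline and 2 lower in cKO against WT with saline. At that threshold 1 was called higher in cKO against WT with FAEE-SAP and 1 in the interaction. In the same order, 258, 48, 532 and 424 of all 11133 genes were called in those directions. With the B cell level as a covariate, added after the data were seen, 2 members were called in cKO against WT with FAEE-SAP. Without both high libraries, also added later, the median was 0.39 for FAEE-SAP in WT and -0.44 for the interaction. Leaving out 1 library at a time gave medians of -0.85 to 0.40 for FAEE-SAP in WT, -0.17 to 0.98 in cKO, -1.33 to -0.20 for genotype with saline, -0.72 to 0.57 for genotype with FAEE-SAP and 0.067 to 1.34 for the interaction. The labels give no shared source for same-numbered libraries. Across genes, their deviations from the group means correlated at -0.52 to -0.17 between WT saline and each other group and at 0.18 to 0.40 among the other groups, so the numbers were not taken as pairs. With replicate number as a block 0 members were called. The medians (-0.30, 0.44, -0.74, -0.10 and 0.76) cannot change under it, since each group has 1 library of each number.

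Counts over all genes moved more. For FAEE-SAP in WT 833 genes were called, 7202 as deposited, 541 without a filter, 414 with a pseudocount of 1, 1266 at an unadjusted p, 270 without both high libraries and 172 at the fewest with 1 library left out. In cKO the 15 calls became 745 as deposited, 366 at an unadjusted p, 9 with the replicate block, 5 with the 2 groups alone, 7 without both high libraries and 6 at the fewest with 1 library left out. For genotype with saline the 0 calls became 3 as deposited, 3 with quantile normalization and 99 at an unadjusted p. For genotype with FAEE-SAP the 295 calls became 4454 as deposited, 64 without a filter, 186 with a pseudocount of 1, 140 with the 2 groups alone, 191 with the replicate block, 876 at an unadjusted p, 578 with the covariate, 2 without both high libraries and 9 at the fewest with 1 library left out. The 8 interaction calls became 791 as deposited, 25 with quantile normalization, 35 with an RPKM minimum of 2, 24 with a pseudocount of 1, 1 with a pseudocount of 0.01, 3 without the trend, 26 with the covariate, 782 at an unadjusted p, and 0 without a filter, with the replicate block or without both high libraries. The cause was not tested. Of the acinar genes called, 11 in WT FAEE-SAP and 9 in cKO against WT with FAEE-SAP, 2 and 1 were called as deposited and 3 and 2 with quantile normalization. As deposited, 7122 of the 7202 calls in WT were higher, against 374 of 833 in the scaled values. Low reads limit *Tnfrsf17*, *Gzma*, *Gzmb* and *Foxp3*.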
